A study of Rattus norvegicus with 16 samples.

Results

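The genes of 2 calcium-binding protein families, the S100 proteins and the annexins, were followed in PCCl3 rat thyroid cells in which *Pax8* was silenced. They were chosen by symbol: 10 genes, *S100a4*, *S100a6*, *S100a8*, *S100a9*, *S100a10*, *S100a11*, *Anxa1*, *Anxa2*, *Anxa3* and *Anxa5*, matched through the RefSeq transcript that the array files give for each probe. A probe was found for 9 of the 10, by 14 probes in all, out of 8899 genes that 10768 probes named. No probe resolved to *S100a11*, which is named only. PCCl3 is a continuous line of thyroid follicular cells from Fischer rats, grown here in serum with TSH, insulin and other hormones in every condition. Cells transfected with a *Pax8* siRNA (si*Pax8*, 10 ng/ml, RNA taken 48 hours after transfection) were hybridized on 2-colour arrays against wild type (wt) cells on 8 arrays, and against cells transfected with a scrambled siRNA (siScramble, 10 ng/ml) on another 8. Each comparison had 4 biological replicates, each in both dye orientations. Lipofectamine, a lipid reagent, carried the siRNAs. The wt cells had no siRNA, and the sources differ on whether they received the reagent. All cells were of 1 line and silencing was transient, and the sources do not say whether the same si*Pax8* cultures served both comparisons. The si*Pax8* levels of same-numbered replicates deviated together across the comparisons, so the numbers were taken to pair them. The main fit of the difference between the comparisons did not use the pairs, and an alternative fit did.

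S100 proteins are small EF-hand proteins. Most, but not all, change shape when they bind calcium and then hold on to partners such as non-muscle myosin. Several are also secreted and act on receptors such as Ager (RAGE) and Tlr4. Annexins bind phospholipid membranes in a calcium-dependent way, and some pair with an S100 protein, as Anxa2 does with S100a10. *S100a4*, *S100a6*, *Anxa1* and *Anxa2* are abundant in many epithelial and mesenchymal cells, whereas *S100a8* and *S100a9* are typical of myeloid cells.

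Before the values, the promoters of the 4 genes that were higher in si*Pax8* than in wt cells are shown, as the 250 bases before the gene's start (RefSeq, build GRCr8, 5′ to 3′ on the gene's strand). Capitals mark matches, on either strand, to 4 motifs: an AP-1 site, a GC box, a TATA box and the core bound by the paired domain of Pax proteins. None of the matches overlap.
*S100a4*, chr2:178388279-178388528, plus strand: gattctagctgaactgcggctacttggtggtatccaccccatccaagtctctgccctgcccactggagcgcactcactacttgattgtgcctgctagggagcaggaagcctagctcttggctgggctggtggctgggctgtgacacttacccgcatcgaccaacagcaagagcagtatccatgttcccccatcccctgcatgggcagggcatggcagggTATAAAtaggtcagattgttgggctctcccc
*S100a6*, chr2:178398287-178398536, plus strand: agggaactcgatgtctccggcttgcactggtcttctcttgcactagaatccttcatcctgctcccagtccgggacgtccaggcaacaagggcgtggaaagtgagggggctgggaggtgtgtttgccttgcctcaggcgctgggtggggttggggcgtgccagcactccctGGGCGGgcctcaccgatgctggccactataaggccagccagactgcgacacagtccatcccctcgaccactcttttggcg
*Anxa1*, chr1:227303733-227303982, minus strand: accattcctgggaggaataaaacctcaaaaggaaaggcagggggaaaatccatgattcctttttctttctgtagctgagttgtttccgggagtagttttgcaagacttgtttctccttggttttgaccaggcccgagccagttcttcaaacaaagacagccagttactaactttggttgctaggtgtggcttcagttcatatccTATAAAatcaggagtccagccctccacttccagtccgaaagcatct
*Anxa2*, chr8:78986002-78986251, plus strand: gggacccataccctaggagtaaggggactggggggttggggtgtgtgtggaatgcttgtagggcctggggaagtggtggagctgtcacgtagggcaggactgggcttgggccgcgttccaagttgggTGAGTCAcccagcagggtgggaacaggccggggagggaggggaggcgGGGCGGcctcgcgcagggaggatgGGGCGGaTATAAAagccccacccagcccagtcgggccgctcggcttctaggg
The TATA box letters (TATAAA) lay 31 bases before the start of *S100a4*, 46 before that of *Anxa1* and 45 before that of *Anxa2*, and 12.9% of all 33469 promoters of this length held them. *S100a6* had 1 GC box (GGGCGG) and *Anxa2* had 2, and 30.5% of all promoters held that motif. The AP-1 letters (TGANTCA) occurred in *Anxa2* alone among these 4 promoters, 123 bases before the start, and in 6.34% of all promoters. The paired-domain core (GTCACGC) was in none of the 8 promoters of listed genes that the table held, and in 1.74% of all promoters. A match is a description of the letters in this window and says nothing of binding. The promoters of *S100a8* and *S100a10* were not analysed here.

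All log2 ratios are of si*Pax8* over control, so a positive value is a higher level in si*Pax8* cells; the authors' value table runs in the opposite direction. A gene's value is the mean over its probes, and a gene passed where each of its probes had an adjusted p below 0.005 (limma with Benjamini-Hochberg adjustment over 41012 probes), the threshold of the study. The probe for *Pax8*, which is the silenced gene, gave -0.84, -0.57, -0.59 and -0.26 in replicates 1 to 4 over wt (mean -0.56 ± 0.24 SD, adjusted p from limma 0.000472). Over siScramble it gave -0.58, -0.29, -0.12 and -0.01 (mean -0.25 ± 0.25 SD, adjusted p from limma 0.143), so the lower *Pax8* signal passed the test over wt only, and the difference between the 2 ratios did not pass (adjusted p from limma 0.183). Of the 7 measured thyroid follicular cell markers, all above background on every array, 6 were lower over wt, beside 9.46% of all named genes. *Pax8*, the silenced gene, is 1 of the 7 and 1 of these 6. Over siScramble 1 marker, *Tg*, was lower, beside 1.31% of all named genes. The ratios of the 7 markers over wt ran from -0.96 (*Tg*) to -0.13 (*Tshr*). Between 52% and 60.8% of spots were well above background per array and channel, and no member spot was saturated or marked as an outlier. Replicate 1 over wt stood apart from the other 3 in 5 of the 6 sets of replicates, out of 58 examined, in which 1 value lay far from the rest.

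Over wt cells, 4 of the 9 measured genes were higher in si*Pax8* cells and none was lower, where 16.7% of all named genes passed, 7.26% higher and 9.46% lower. These were *S100a4*, *S100a6*, *Anxa1* and *Anxa2*, with mean differences from 1.23-fold to 1.69-fold. Over siScramble cells, *S100a4* and *S100a6* were higher and none was lower, where 2.99% of all named genes passed, 1.67% higher and 1.31% lower. When Agilent's own processed intensities were used, 2 genes, *S100a6* and *Anxa1*, passed over wt. *S100a4* (0.31, adjusted p from limma 0.0347) and *Anxa2* (0.50, adjusted p from limma 0.0128) did not. With those intensities 0 genes passed over siScramble, where *S100a4* gave 0.94 (adjusted p from limma 0.00602) and *S100a6* 0.63 (adjusted p from limma 0.0124). The share of all named genes passing with those intensities is not given here. The median log2 ratio of the 9 genes was 0.10 over wt and 0.06 over siScramble, and that of all named genes was -0.00522 and -0.00339. *S100a8* and *S100a9* were at background on every array and *Anxa3* on all but 1, which leaves 6 genes with a measured level. The median over 9 genes includes these 3.

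**Figure D1:**
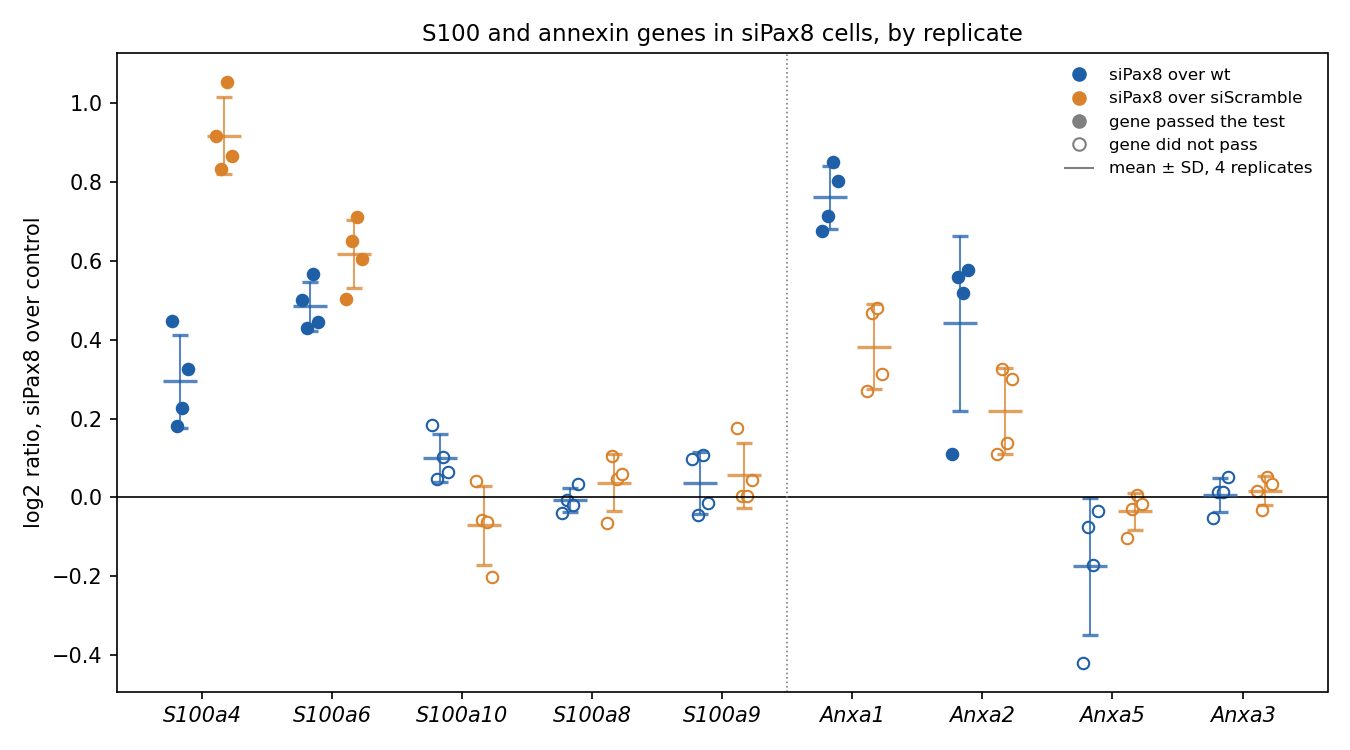
Log2 ratio of si*Pax8* over control (vertical axis) for the 9 measured S100 and annexin genes, with each of 4 replicates as a point, the dye swaps averaged, and the mean ± SD as bars; blue is over wt, orange over siScramble, and filled points mark genes that passed the test. *S100a4* lay highest over siScramble (mean 0.92) and *Anxa1* over wt (mean 0.76), while *S100a8*, *S100a9* and *Anxa3* stayed near 0.

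*S100a4*, which binds non-muscle myosin and is known for its link with cell motility and metastasis, lay above both controls. Over siScramble cells its log2 ratio was 0.92, 0.83, 1.05 and 0.87 in replicates 1 to 4, a mean of 0.92 ± 0.10 (SD, n = 4) or 1.89-fold. It was positive on 8 of 8 arrays, and only 5 of 8899 named genes had a higher ratio (rank 6). Its 2 probes for the same transcript gave 0.94 ± 0.04 and 0.89 ± 0.04 (SE), with adjusted p-values from limma of 0.000111 and 0.000108. Over wt cells the ratio was 0.45, 0.18, 0.23 and 0.33, a mean of 0.29 ± 0.12 (SD, n = 4) or 1.23-fold, again positive on 8 of 8 arrays. Here the probes gave 0.34 ± 0.05 and 0.25 ± 0.04 (SE), with adjusted p-values from limma of 0.000779 and 0.00140. In neither comparison did the si*Pax8* and control levels of either probe overlap. The share of all probes without such overlap is not given here, for this gene or for those below. Over wt the gene no longer passed without replicate 3 (0.32, adjusted p from limma 0.00752) or without replicate 4 (0.28, adjusted p from limma 0.00990), and without replicate 1 it passed at 0.24. It also did not pass from the Cy3 arrays alone (0.29, adjusted p from limma 0.0343).

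*S100a6* (calcyclin), which binds calcyclin-binding protein and is raised in proliferating cells, was the other S100 gene higher in both comparisons. Over wt its log2 ratio was 0.50, 0.43, 0.57 and 0.44, a mean of 0.48 ± 0.06 (SD, n = 4) or 1.40-fold, with an adjusted p from limma of 9.98e-06. Over siScramble it was 0.50, 0.65, 0.71 and 0.61, a mean of 0.62 ± 0.09 (SD, n = 4) or 1.53-fold, with an adjusted p from limma of 0.000287. The si*Pax8* levels lay above all control levels in both comparisons, and all 16 arrays gave a positive ratio. The size depended on the dye. With si*Pax8* in Cy5 the mean over wt was 0.12 (0.04 to 0.23), and with si*Pax8* in Cy3 it was 0.85 (0.70 to 0.93). Over siScramble the corresponding means were 0.32 and 0.91. Because each replicate was hybridized in both orientations, a dye effect of constant size cancels in the mean. From the Cy5 arrays alone the gene did not pass in either comparison (adjusted p from limma 0.0370 over wt and 0.0184 over siScramble). Without replicate 2, *S100a6* failed over siScramble (0.61, adjusted p from limma 0.00517).

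*S100a10*, the partner of Anxa2 and a plasminogen-binding protein, did not pass in either comparison. Over wt its log2 ratio was 0.18, 0.05, 0.10 and 0.06 (mean 0.10 ± 0.06 SD, adjusted p from limma 0.0530). Over siScramble it was 0.04, -0.06, -0.06 and -0.20 (mean -0.07 ± 0.10 SD, adjusted p from limma 0.424). The si*Pax8* and control levels overlapped in both comparisons.

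*S100a8* and *S100a9*, which form calprotectin, were not well above background on any of the 16 arrays in either channel, so no fold is given. Their log2 ratios averaged -0.01 and 0.04 over wt and 0.04 and 0.06 over siScramble. Myeloid markers were examined beside them. *Itgam* and *Aif1* were likewise not well above background on any array, whereas *Cd68*, *Cd14* and *Lyz2* were above it on all. The summed log2 level of the 8 myeloid probes was 10.4 to 10.7 in si*Pax8* cells and 10.4 in each wt replicate, and the ranges were 10.4 to 10.7 and 10.3 to 10.6 beside siScramble. *Cd68* alone of the 7 measured myeloid genes passed (0.30 over wt), beside 7.26% of all named genes higher over wt. Over siScramble limma called none, and 1 had an unadjusted p under 0.05 in every probe. *Tyrobp* had the smallest ratio over wt (-0.04).

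*Anxa1*, an annexin that acts in the resolution of inflammation and on epithelial cell growth, had the largest ratio of the 9 genes over wt. It was 0.68, 0.71, 0.85 and 0.80, a mean of 0.76 ± 0.08 (SD, n = 4) or 1.69-fold, and it ranked 62 of 8899 named genes. The probes gave 0.82 ± 0.03 and 0.70 ± 0.06 (SE), with adjusted p-values from limma of 3.56e-07 and 4.20e-05. The ratio was positive on 8 of 8 arrays, between 0.67 and 0.87, and passed under all 14 alternative settings. Over siScramble it was 0.27, 0.47, 0.48 and 0.31, a mean of 0.38 ± 0.11 (SD, n = 4) or 1.30-fold, positive on 8 of 8 arrays and with no overlap of levels. One probe passed (0.40, adjusted p from limma 0.00404) and the other did not (0.37, adjusted p from limma 0.00579), so the gene is not counted as passing. It passed under 6 of 14 alternative settings and lies at the threshold.

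*Anxa2*, which carries S100a10 to the membrane and binds plasminogen activators, was higher over wt. Its log2 ratio was 0.11, 0.56, 0.52 and 0.58, a mean of 0.44 ± 0.22 (SD, n = 4) or 1.36-fold, with an adjusted p from limma of 0.00143. The si*Pax8* and wt levels did not overlap, though replicate 1 lay far below the other 3. Without it the mean was 0.55 (adjusted p from limma 1.93e-06), and without any 1 of the others the gene did not pass (0.40, 0.42 and 0.40, adjusted p from limma 0.0107 to 0.0142). Over siScramble the ratio was 0.11, 0.33, 0.14 and 0.30, a mean of 0.22 ± 0.11 (SD, n = 4), which did not pass (adjusted p from limma 0.0238). The dye orientations differed here too. Arrays with si*Pax8* in Cy5 averaged 0.69 over wt and 0.49 over siScramble. The swapped arrays averaged 0.19 and -0.05, and from them alone the gene did not pass over wt (adjusted p from limma 0.243).

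*Anxa5*, the phosphatidylserine-binding annexin used to stain dying cells, had negative ratios over wt that did not pass. They were -0.42, -0.07, -0.17 and -0.04, a mean of -0.17 ± 0.17 (SD, n = 4), with adjusted p-values from limma of 0.0374 and 0.0727 for its probes. The levels did not overlap, nor did those of *S100a3* and *Anxa11* over wt, which did not pass either. Without replicate 1, the lowest, the mean was -0.09. Over siScramble they were -0.10, -0.03, 0.01 and -0.02, a mean of -0.04 ± 0.05. Single arrays differed by dye. Over wt the mean was 0.03 where si*Pax8* carried Cy5 and -0.38 where it carried Cy3. Over siScramble these means were 0.22 and -0.29. *Anxa3* was measured by 3 probes, none well above background over wt and 1 of them on 1 of 8 si*Pax8* arrays over siScramble. Its ratios averaged 0.01 and 0.02, and no fold is given.

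**Figure D2:**
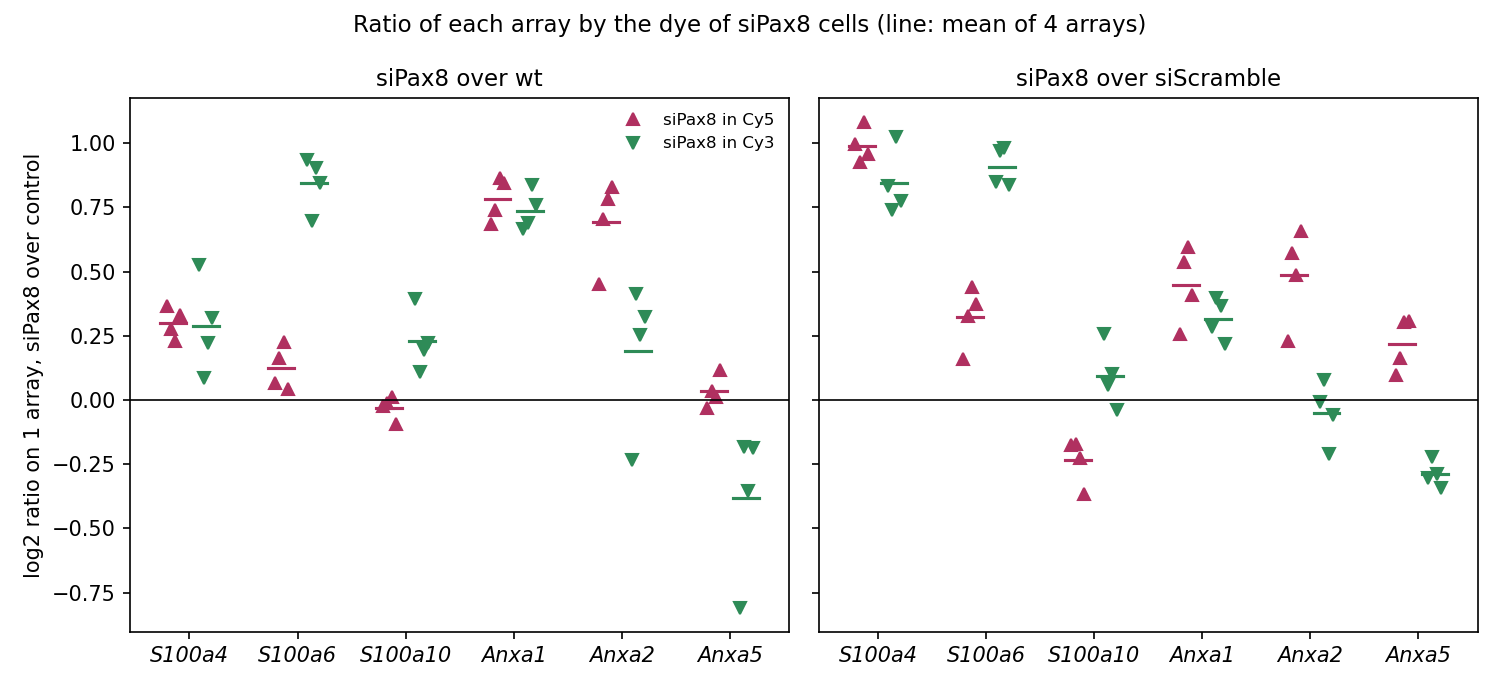
Log2 ratio of si*Pax8* over control on each array (vertical axis) for the 6 genes above background, with si*Pax8* in Cy5 as upward and in Cy3 as downward triangles and a line at the mean of 4 arrays; the left panel is over wt and the right over siScramble. *S100a4* and *Anxa1* had similar values in both orientations, while *S100a6* and *S100a10* were higher with si*Pax8* in Cy3 and *Anxa2* and *Anxa5* with si*Pax8* in Cy5.

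The size of the *S100a4* difference depended on the control. Its log2 ratio was 0.29 over wt and 0.92 over siScramble, a difference of -0.62 ± 0.07 (SE), which passed (highest adjusted p from limma over its probes 0.000438). In a fit that treated the comparisons as independent sets of 4 replicates it was the only one of the 9 genes whose difference passed, where 4.56% of all named genes did, 2.79% lower and 1.78% higher. With the replicate number as a block, in a fit on the differences of same-numbered replicates, *S100a4* (adjusted p from limma 0.000201) and *Anxa1* (adjusted p from limma 0.00103) both passed. The share of all named genes in that fit is not given here. The si*Pax8* levels of the first *S100a4* probe were alike in both sets, with a log2 intensity of 13.39 ± 0.14 beside wt and 13.44 ± 0.14 beside siScramble (SD, n = 4). Its control levels were 13.06 ± 0.03 in wt and 12.50 ± 0.19 in siScramble cells. The second probe gave 12.83 ± 0.11 and 12.87 ± 0.10 in si*Pax8* cells, 12.58 ± 0.05 in wt and 11.98 ± 0.16 in siScramble cells. Its order was thus siScramble, wt, si*Pax8* for both probes, with no overlap between neighbours. wt and siScramble RNA were never on the same array, so their order rests on the normalization across arrays. The difference no longer passed without replicate 3 (-0.55, adjusted p from limma 0.00683), with Agilent's processed intensities (-0.63, adjusted p from limma 0.00627) or from the Cy3 arrays alone (-0.56, adjusted p from limma 0.0103).

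*Anxa1* had the order wt, siScramble, si*Pax8*. The log2 intensity of its first probe was 13.40 ± 0.07 in wt, 13.77 ± 0.10 in siScramble and 14.22 ± 0.02 and 14.16 ± 0.09 in si*Pax8* cells (SD, n = 4). Its ratio over wt exceeded that over siScramble by 0.38 ± 0.08 (SE), which did not pass without the block (adjusted p from limma 0.00126 and 0.0409 for its probes) and passed with it (highest adjusted p from limma 0.00103). For *S100a6* the difference was -0.13 ± 0.05 (SE, adjusted p from limma 0.140) and for *Anxa2* it was 0.22 ± 0.10 (SE, adjusted p from limma 0.208). *S100a6* levels were 13.91 ± 0.07 in wt and 13.79 ± 0.12 in siScramble cells and overlapped between these controls.

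**Figure D3:**
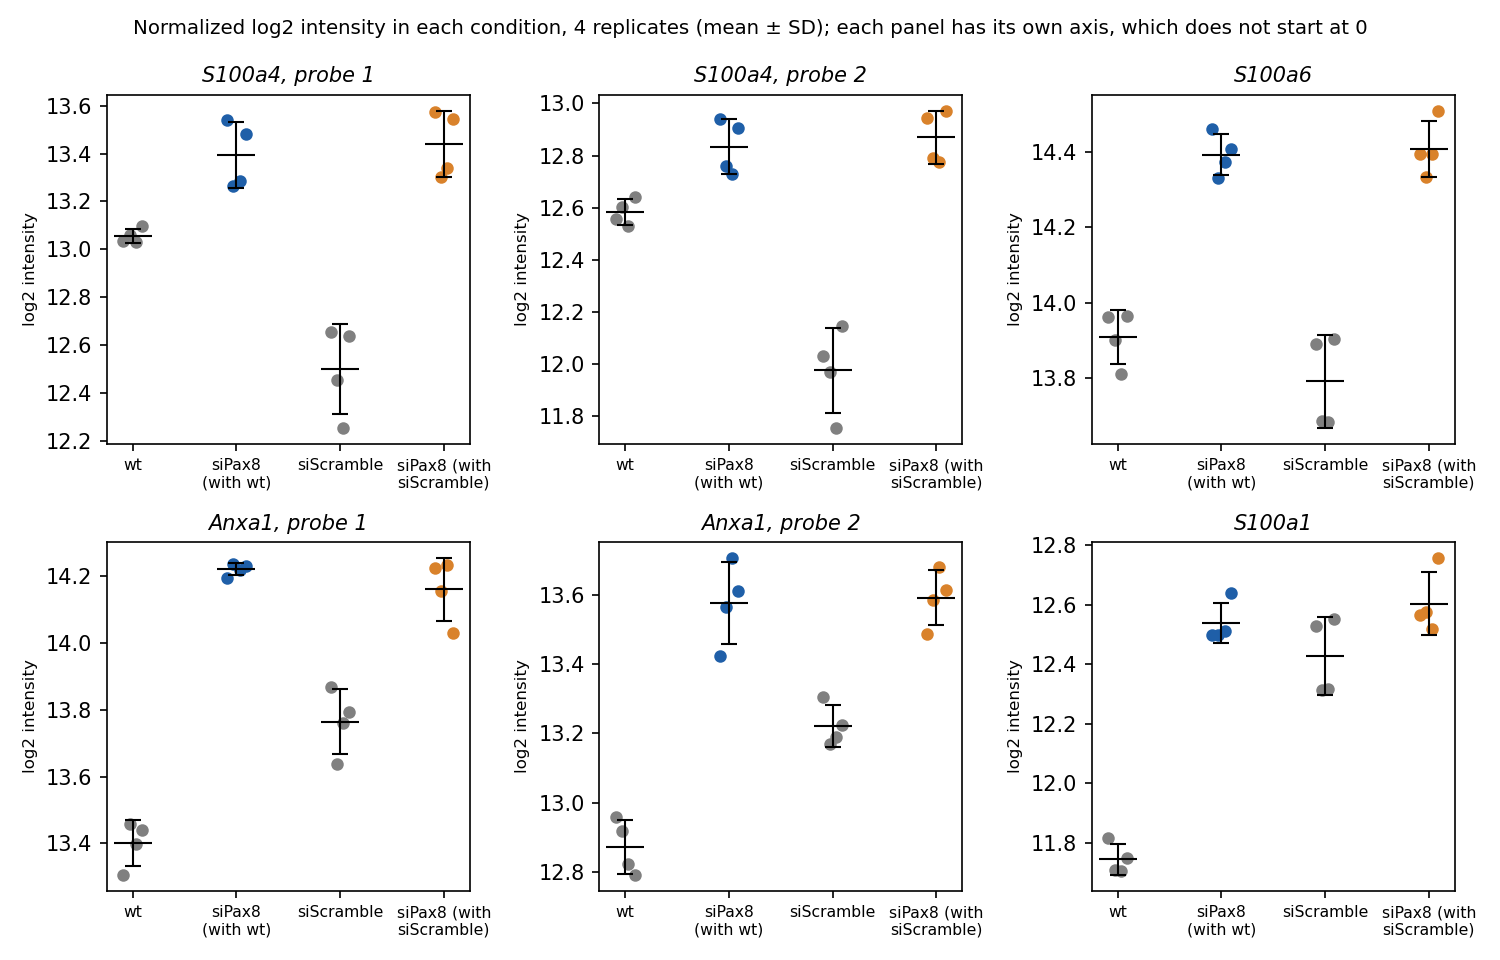
Normalized log2 intensity (vertical axis, cut above 0 and different in each panel) of single probes of *S100a4*, *S100a6*, *Anxa1* and *S100a1* in wt, siScramble and si*Pax8* cells, with 4 replicates as points and the mean ± SD as bars. The si*Pax8* levels beside either control were alike, while siScramble lay below wt for *S100a4*, above wt for *Anxa1* and *S100a1*, and near wt for *S100a6*.

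Other genes of both families gave a mixed picture. Of 22 further S100 and annexin genes, 10 were measured, of which 2 were higher and 1 was lower over wt, beside 7.26% and 9.46% of all named genes. Among the 10, *S100b*, *S100g*, *S100vp* and *Anxa8* were at background on every array over siScramble, where no difference could be measured in them. Over siScramble limma called none, with 1 S100 gene (*S100a1*) and 1 annexin gene (*Anxa4*) at an unadjusted p under 0.05 in every probe. *S100a1*, best known from muscle, where it acts on calcium cycling, was 0.79 ± 0.08 over wt (SD, n = 4, adjusted p from limma 1.14e-06), with replicates of 0.68, 0.79, 0.81 and 0.89. Over siScramble it was 0.18 ± 0.10 (adjusted p from limma 0.0381). This difference of 0.62 ± 0.06 (SE) passed (adjusted p from limma 9.29e-05) and ran opposite to that of *S100a4*. *S100a1* levels were 11.74 ± 0.05 in wt and 12.43 ± 0.13 in siScramble cells on the log2 scale. *Anxa4*, an annexin abundant in epithelia, was higher over wt (0.28 ± 0.03, highest adjusted p from limma 0.000207) and *Anxa6*, which acts in endosomes, was lower (-0.33 ± 0.08, highest adjusted p from limma 0.000147, and -0.30 without replicate 1). With Agilent's processed intensities neither passed (0.30 and -0.38, adjusted p from limma 0.0157 and 0.0112), and *Anxa6* did not pass from the Cy3 arrays alone. Over siScramble their means were 0.09 and -0.08. *Anxa7* and *Anxa11* were above background on every array and did not pass, at 0.09 and 0.15 over wt.

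Many S100 genes lie in a stretch of rat chromosome 2, though the measured *S100b* and *S100g* do not. In the RefSeq gene order, the stretch from *S100a1* to *S100a10* held 15 S100 genes, 8 of them measured, and 56 other genes, 3 of them measured. *S100a4* and *S100a6* lie next to each other but for *S100a5*, which was not measured. Their neighbour *S100a3* gave -0.10 over wt and -0.03 over siScramble, with no pass. It was dim, and over siScramble it was above background on 6 of 8 arrays in either condition. The other 3 genes measured in the stretch had ratios between -0.03 and 0.01 in both comparisons. The levels of these 3 are not given here, so a gene at background cannot be told from an unchanged one. Of the 8 S100 genes, 3 were higher over wt (*S100a1*, *S100a4* and *S100a6*) and 2 over siScramble (*S100a4* and *S100a6*), beside 7.26% and 1.67% of all named genes.

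Receptors and binding partners were read from a list of 17 genes, 10 of which were measured. *Tlr4*, a receptor for S100a8 and S100a9, was higher over wt (0.41 ± 0.05 SD, adjusted p from limma 2.03e-05), with replicates from 0.35 to 0.47, and 0.13 ± 0.10 over siScramble. Its difference between the comparisons (0.28) did not pass in the main fit (adjusted p from limma 0.00682). It passed with the replicate number as a block (adjusted p from limma 0.00274) and with the authors' value table (0.30, adjusted p from limma 0.00377). *Pla2g4a*, the cytosolic phospholipase A2 that annexins can inhibit, was lower over wt (-0.26 ± 0.13 SD, adjusted p from limma 0.00331), with replicates of -0.45, -0.21, -0.17 and -0.19. Without replicate 1 it was -0.19 and passed, and without any 1 of the others it did not (adjusted p from limma 0.0101 to 0.0148). It also failed with Agilent's processed intensities, loess alone, a joint fit or either dye orientation alone (adjusted p from limma 0.00509 to 0.0712). *Cacybp*, the calcyclin-binding protein, was lower over siScramble (-0.22 ± 0.04 SD, adjusted p from limma 0.00433) and -0.02 ± 0.10 over wt. It did not pass when any 1 replicate was left out (adjusted p from limma 0.0157 to 0.0348), nor with Agilent's processed intensities, loess alone, no background subtraction, either dye orientation alone or the filter on dim probes (adjusted p from limma 0.00588 to 0.109). *Bsg*, a receptor for S100a9, and *Myh9*, the heavy chain of the non-muscle myosin that S100a4 binds, were above background and did not pass, at 0.04 and 0.08 over wt (*Myh9* 0.11 without replicate 1). The median of the 10 genes was 0.02 over wt and 0.01 over siScramble. It includes *Plat* and *Plau*, which were at background on every array over siScramble.

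**Figure D4:**
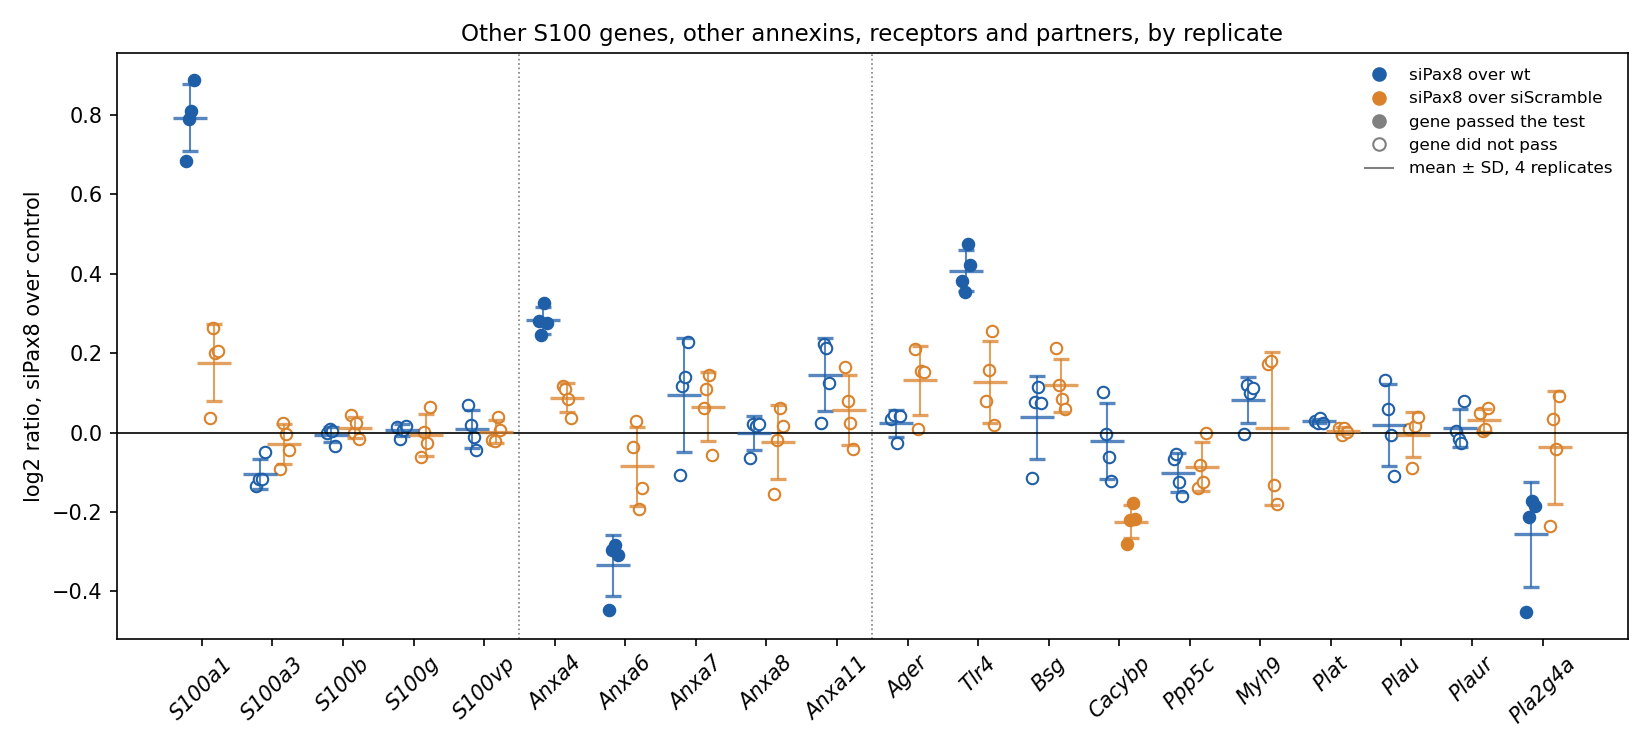
Log2 ratio of si*Pax8* over control (vertical axis) for the other measured S100 genes, annexins, and receptors and partners, separated by dotted lines, with 4 replicates as points and the mean ± SD as bars; blue is over wt, orange over siScramble, and filled points mark genes that passed. *S100a1*, *Anxa4* and *Tlr4* were higher and *Anxa6* and *Pla2g4a* lower over wt, and *Cacybp* alone passed over siScramble, a call lost when any 1 replicate was left out.

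Among the 9 measured genes of other EF-hand calcium sensors and buffers, 1 was higher and 1 lower over wt, beside 7.26% and 9.46% of all named genes. Over siScramble limma called none, and 2 had an unadjusted p under 0.05 in every probe. *Calb2* (calretinin) had the largest ratio over wt (0.38 ± 0.10 SD, adjusted p from limma 0.000121), and *Calm3* (calmodulin) the smallest (-0.31). The 2 probes of *Calm3* disagreed, with adjusted p-values from limma of 3.98e-06 and 0.960, so the gene did not pass. The median of this list was -0.03 in both comparisons.

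The pattern of *S100a4* over the 8 averaged ratios, 4 in each comparison, was compared with that of 5206 named genes. These were above background in si*Pax8* cells, the only condition that the filter used. The nearest was *Gsta1*, with a root mean square difference of 0.12 and means of 0.21 over wt and 1.02 over siScramble. *Gcg* (0.20), *Igfbp5* (0.27), *Fmod* (0.28) and *Sult1a1* (0.29) followed. These genes were picked for closeness to the ratios of *S100a4*, so their higher mean over siScramble than over wt follows from the choice.

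Fibroblast and interferon response markers were also examined. Fibroblast markers were at background for *Col3a1*, *Pdgfrb*, *Dcn*, *Lum* and *Thy1*. *Col1a2* had 2 probes. Over siScramble 1 was well above background on 8 of 8 arrays in either condition, and the other on none. The gene did not pass, at 0.05 over wt and 0.02 over siScramble. In each comparison 1 of 7 measured genes was higher, beside 7.26% of all named genes over wt and 1.67% over siScramble. That was *Vim*, which epithelial cells in culture also express, at 0.56 ± 0.17 over wt and 0.25 ± 0.05 over siScramble (SD, n = 4, adjusted p from limma 0.000106 and 0.00369). The summed log2 level of the 8 fibroblast probes was 14.5 to 14.6 in si*Pax8* cells and 13.9 to 14.2 in wt cells, and 14.5 to 14.8 against 14.2 to 14.6 for siScramble. *Vim* made up nearly all of it, at 14.4 to 14.6 in si*Pax8* and 13.8 to 14.1 in wt cells, and the median ratio of the 7 genes was 0.03 over wt and 0.01 over siScramble. Interferon response genes were higher over wt for 13 of 15 measured, beside 7.26% of all named genes. *Oas1a* at 2.93 had the largest ratio over wt and *Ifit1* at -0.02 the smallest. Against siScramble 1 of 15, *Irf7* (0.74), was higher, beside 1.67% of all named genes. Over siScramble all 15 ratios were above 0, with a median of 0.24, and 12 had an unadjusted p under 0.05 in every probe. The difference between the comparisons passed for 9 of the 15, each with the higher ratio over wt, beside 1.78% of all named genes in that direction. The summed log2 level of this list was 15.1 to 15.6 in si*Pax8* cells, 13.3 to 13.4 in wt and 14.7 to 14.9 in siScramble cells. The part of either list in the S100 and annexin values was not tested. In bulk RNA, more cells of a type and more RNA per cell cannot be told apart.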

How the data were processed

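The 10 genes and the other gene lists were chosen with earlier results of these data known. For each array the authors deposited the scanner's spot intensities and log10 ratios (per the file headers, from Feature Extraction version 10.1.1.1 with 5 µm scanning, where the methods give other settings) and 1 table of normalized log2 ratios, the authors' processed values, whose columns had medians from -0.000736 to 0.00828 and correlated from -0.999 to -0.992 with the ratios computed here, so that it holds control over si*Pax8*. According to the methods these were loess and quantile normalized. The log10 ratios were not used for values, and the log2 table served as an alternative.

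Here, mean and background intensities went through limma 3.58.1 (R 4.3.3): normexp background correction (offset 50), loess within arrays (control and outlier spots at weight 0), quantile normalization of all channels, then averaging of each probe's spots and each replicate's pair of swapped arrays. The 4 values were tested against 0 with lmFit and eBayes. The difference between the comparisons was fitted on 8 values. Probes were named from the transcript accessions through RefSeq (GRCr8), which served for names, gene order and promoters. Deviations from the replicate mean correlated from 0.119 to 0.471 over wt and from 0.332 to 0.58 over siScramble between the dye-swapped arrays of a number, so these were averaged. Deviations of the si*Pax8* levels correlated at 0.65, 0.53, 0.742 and 0.74 between same-numbered replicates of the comparisons and from -0.426 to 0.0446 between others, which is where the pairing comes from; the wt and siScramble levels gave -0.125 to 0.175. This check of levels was made after the results were known. The fit was tested on simulated data. The arrays lay on 4 slides, each with 2 arrays of each comparison. Named genes were all listed S100 and annexin genes; of the other S100, annexin, receptor and partner genes those that passed and up to 5 above background that did not; of the other lists the genes with the largest and the smallest ratio over wt; and the 5 genes most like *S100a4*. Single marker genes named beside these were chosen after their values were seen. One gene of these lists is not reported here. The number of arrays limits the precision. Alternatives were other background corrections and normalizations, each dye orientation, blocks, a filter on dim probes, a joint fit and leaving out each replicate.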

Additional observations from a re-analysis of the deposited data

Results flagged for a closer look

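In 6 of 58 sets of 4 replicates (29 genes in 2 comparisons), 1 value lay apart from the other 3 by more than the critical share of the range in Dixon's test. Chance gives about 1 in 20. All 6 were over wt. In *Anxa2* (0.875 of the range), *Anxa6* (0.844), *Anxa8* (0.941), *Myh9* (0.848) and *Pla2g4a* (0.853) replicate 1 was the lowest, and in *Ager* (0.848) replicate 3 was. *Anxa8* was not well above background on any array.

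The ratio of *S100a4* over wt minus that over siScramble was -0.62 on the log2 scale, a tested difference between the comparisons. That of *S100a1* was 0.62, in the opposite direction. The si*Pax8* levels of both genes were alike beside either control.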

How the results depend on the processing

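Leaving out 1 replicate gave 2 to 4 of the 9 listed genes over wt (main 4), 1 to 2 over siScramble (main 2) and 0 to 1 with a difference between the comparisons (main 1). For the other S100 and annexin genes over wt it gave 3 to 4 (main 3), and for receptors and partners 1 to 2 over wt (main 2) and 0 in each case over siScramble (main 1). With Agilent's processed intensities, the counts were 2 listed genes, 1 other S100 or annexin gene and 1 receptor or partner over wt, 0 and 0 listed genes and receptors over siScramble, and 0 differences. With si*Pax8* in Cy3 alone, they were 2 listed genes and 1 receptor or partner over wt, and 0 receptors or partners over siScramble and 0 differences. With si*Pax8* in Cy5 alone, they were 1 listed gene and 0 receptors or partners over siScramble. Receptors and partners numbered 1 over wt with loess alone or both comparisons in one fit, and 0 over siScramble with loess alone, no background subtraction or the filter on dim probes. Over the listed genes, 113 of 123 single values over wt, 113 of 123 over siScramble and 101 of 105 differences kept their side of the threshold, and no gene that passed under either setting changed sign. Adjusted p-values of *Anxa2* over wt ran from 8.38e-08 to 0.243, and those of *S100a4* from 6.53e-05 to 0.0347. Between the comparisons, the ratios of same-numbered replicates correlated at 0.395, 0.175, 0.0449 and 0.566. With the number as a replicate block, in the fit on differences of same-numbered replicates, 2 listed genes differed between the comparisons. These were *S100a4* and *Anxa1* (adjusted p from limma 0.000201 and 0.00103). In a separate fit on all 8 arrays of a comparison, with the number as a block, 4 passed over wt and 3 over siScramble. The share of all named genes passing is not given here for that fit or for the other settings in this paragraph. The consensus correlation of that fit was negative, -0.124 over wt and -0.115 over siScramble. A negative correlation makes the error of the mean smaller than for independent arrays. The cause of these changes was not tested. Low intensity limits *S100a8*, *S100a9* and *Anxa3*, for which no difference could be measured.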
